A study of Mus musculus with 2 samples.

Results

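The 8 genes described here are 5 fibroblast growth factor (FGF) ligands, Fgf1, Fgf2, Fgf7, Fgf9 and Fgf18, and 3 FGF receptors, Fgfr1, Fgfr2 and Fgfr3. They were taken by name, without use of any measured value, from the 32285 genes counted in 2 single-cell RNA-seq libraries of mouse knee joint cartilage. One library came from joints after DMM surgery, in which the medial meniscus is destabilised to bring on osteoarthritis, and the other from joints after sham surgery. Each library pooled the cells of 3 mice labelled WT, so cells could not be traced to an animal. In both, live cells (CalceinAM+, DAPI-) negative for CD45, Ter119 and CD31 were sorted after digestion with collagenase and dispase, and the labels call them superficial cells. The labels as given here state no time after surgery, age or sex. With 1 library per condition there was no replicate check of any difference between DMM and sham, and no test was possible. Square brackets hold 95% intervals that cover the counting error of the UMIs alone, not the variation between mice.

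FGF ligands are secreted or released proteins that bind receptor tyrosine kinases together with heparan sulfate, and the receptors signal through adaptors such as Frs2 to the RAS and MAP kinase cascade. In cartilage, Fgfr3 is known for restraining the proliferation of growth plate chondrocytes, Fgf18 for promoting cartilage matrix formation through Fgfr3, and Fgf2 for being held on perlecan in the pericellular matrix and set free by injury. Fgf7 acts through an isoform of Fgfr2 found mostly in epithelia, and Fgfr1 signalling has been tied to matrix loss in osteoarthritis models. Counts at the 3′ end of transcripts cannot separate the receptor isoforms.

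The promoters of Fgf7 and Fgf18 are shown because both ligands were low in the chondrocyte-like class and each was led by another cell population. The 250 bases before the RefSeq start on GRCm38.p6 lie at chr2:126034408-126034657 on the plus strand for Fgf7 and at chr11:33147401-33147650 on the minus strand for Fgf18, written 5′ to 3′. Capitals mark a SOX motif (ACAAAG, here on the other strand) in Fgf7 and a GC box (GGGCGG, here on the other strand) in Fgf18.
Fgf7: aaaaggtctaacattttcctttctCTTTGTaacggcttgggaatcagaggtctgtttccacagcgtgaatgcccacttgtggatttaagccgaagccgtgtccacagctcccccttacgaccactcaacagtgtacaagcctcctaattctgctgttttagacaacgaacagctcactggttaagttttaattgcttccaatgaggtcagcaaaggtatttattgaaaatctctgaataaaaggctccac
Fgf18: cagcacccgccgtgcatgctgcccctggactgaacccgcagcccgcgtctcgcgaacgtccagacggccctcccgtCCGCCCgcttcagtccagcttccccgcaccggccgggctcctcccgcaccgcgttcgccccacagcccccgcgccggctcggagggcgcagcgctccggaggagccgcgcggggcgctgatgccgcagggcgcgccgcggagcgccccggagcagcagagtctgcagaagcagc
The Fgf7 window had a GC content of 43.6%, at the 20.1 percentile of 32851 promoter windows of the same length, and the Fgf18 window 77.2%, at the 97.4 percentile, around a median of 52.4%. Both strands were searched for 6 motifs. The GC box was present in 32.7% of all windows, the SOX motif in 16.5%, an E-box (CANNTG, with 1 match in Fgf7) in 66.2%, a RUNX motif (TGTGGT) in 14.0%, a TATA box (TATAAA) in 12.4% and an AP-1 motif (TGANTCA) in 6.75%. These matches describe the letters of the windows and were not tested for use.

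On GRCm38 the ligand genes lie at 2:126034658-126091185 (Fgf7, plus strand), 3:37348346-37410108 (Fgf2, plus), 11:33117430-33147400 (Fgf18, minus), 14:58070547-58112720 (Fgf9, plus) and 18:38838673-38929472 (Fgf1, minus). The receptor genes lie at 8:25513654-25575718 (Fgfr1, plus), 5:33721674-33737068 (Fgfr3, plus) and 7:130162451-133123350 (Fgfr2, minus). Fgf1, Fgf2, Fgf7, Fgf9, Fgfr1 and Fgfr3 overlap an annotated gene on the opposite strand and Fgf18 does not, and the sources used here do not say whether strand was used in counting. Arhgap26, which overlaps Fgf1, stood at 35.2 CPM in DMM and 68.2 CPM in sham over all connective tissue cells, where CPM are the UMIs of a gene scaled to the UMI total of the population. Fgfr2 has a record of 2961 kb in GENCODE, stretched over many neighbouring genes, against 104 kb in RefSeq.

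After filtering, 9529 cells were kept in each library, with medians of 7859 UMIs in DMM and 8064 in sham. Clustering without the 8 genes and without 82 other FGF pathway genes gave 27 clusters, of which 20 were connective tissue, with 8493 DMM and 7718 sham cells. Of these, 19 held at least 50 cells in each library and are described here, named by their first leading gene; the other, of cycling cells, had 47 DMM and 78 sham cells. Most fall into 9 classes named from fixed markers, and 4 connective tissue clusters (Serpina1e, Angptl7, S100a4 and Chil1) stayed unnamed. The cartilage label was borne out in part: Prg4, the lubricin of the joint surface, stood at 56326 CPM in DMM and 43517 CPM in sham in the superficial zone chondrocyte-like class, and Col2a1, the collagen of cartilage, at 21228 CPM in DMM and 23361 CPM in sham in the chondrocyte-like class. Chondrocyte classes were a minority, beside osteoblast, fibroblast, synovial lining, tendon or ligament, marrow stromal and perivascular-like cells. Despite the sort against Ter119, 892 DMM and 1555 sham cells were erythroid-like, and hemoglobin Hbb-bs reached 575 CPM in DMM and 1376 CPM in sham within connective tissue, while the leukocyte gene Ptprc was at 0.0526 CPM in DMM and 0.0523 CPM in sham there. The part of RNA from these cells in the FGF values was not tested, but the erythroid-like cells themselves held few ligand UMIs: Fgf1, Fgf7, Fgf9 and Fgf18 were each below 1 CPM and Fgf2 was at 2.55 CPM in DMM and 2.55 CPM in sham. Receptor levels there were 27.03 CPM in DMM and 33.8 CPM in sham for Fgfr2, 8.19 CPM in DMM and 4.69 CPM in sham for Fgfr1 and 2.02 CPM in DMM and 1.504 CPM in sham for Fgfr3. Fgfr2 exceeded Fgfr1 in erythroid-like cells and was below it over connective tissue, and the source of these UMIs was not tested.

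**Figure D1:**
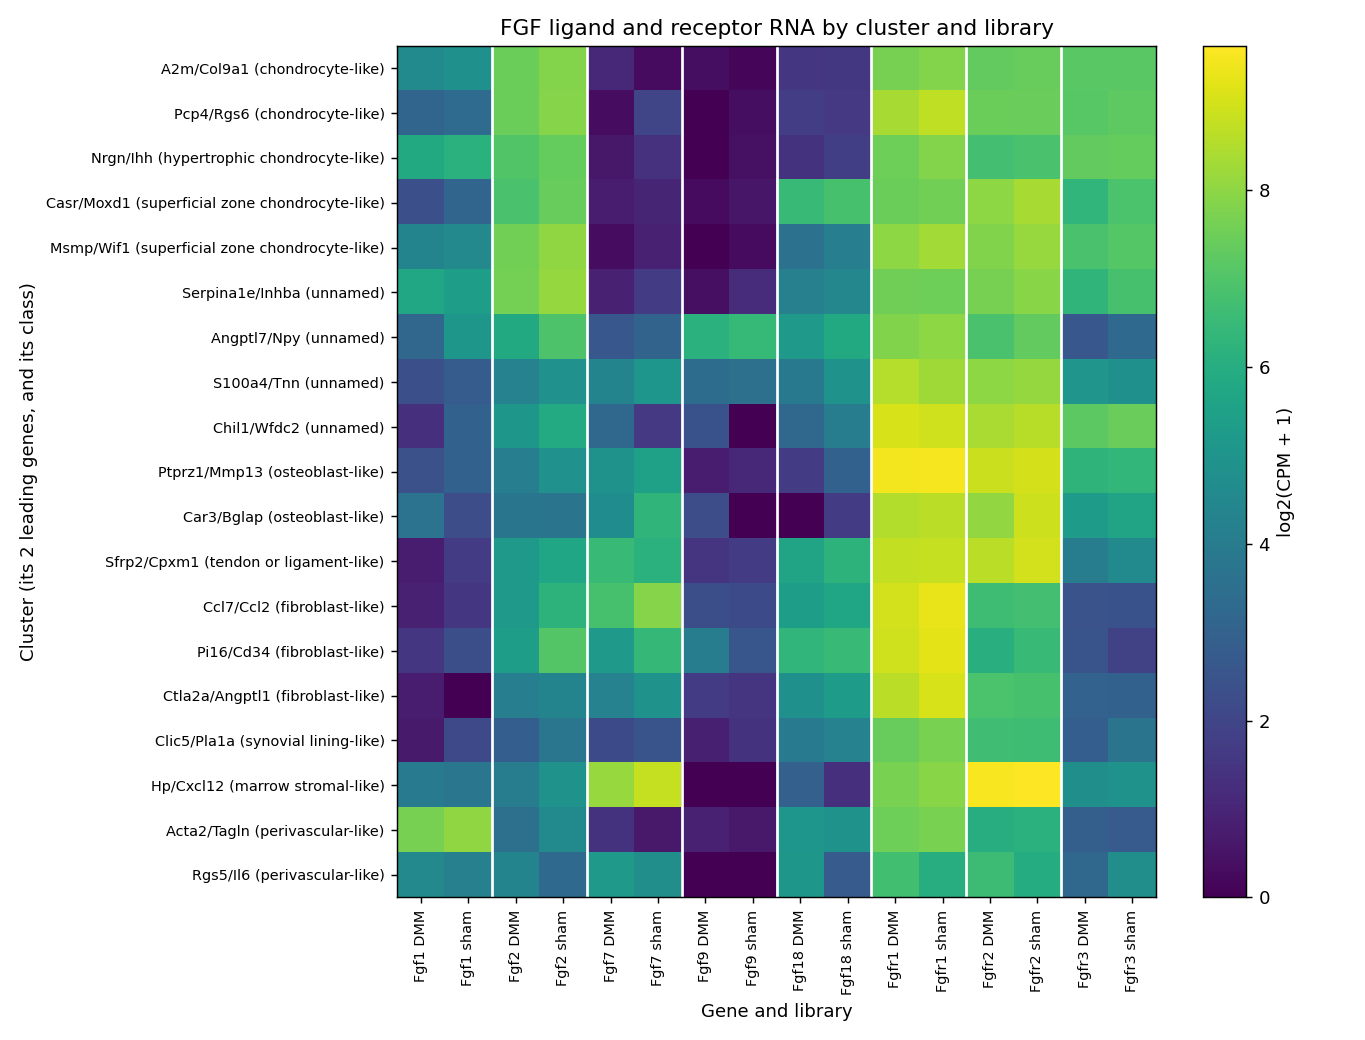
Level of each FGF gene, as log2(CPM + 1), in the 19 connective tissue clusters of the DMM and the sham library. Fgf9 is concentrated in the Angptl7 cluster. Fgf1 has its highest level in the Acta2 cluster and Fgf7 in the Hp cluster. Fgfr1 and Fgfr2 are present in all 19.

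Fgf2, the ligand held in the pericellular matrix of cartilage, was a chondrocyte transcript in both libraries. Its level was 174 CPM [168, 181] in DMM and 227 CPM [221, 233] in sham in the chondrocyte-like class, 153 CPM [145, 161] in DMM and 210.2 CPM [202, 219] in sham in the superficial zone class and 127 CPM [118, 137] in DMM and 163 CPM [154, 172] in sham in the hypertrophic class. The perivascular-like and synovial lining-like classes were at the low end, with 12.7 CPM in DMM and 20.96 CPM in sham and with 6.34 CPM in DMM and 12.8 CPM in sham. Relative to the remaining connective tissue, the chondrocyte-like class was higher by 2.26-fold [2.15, 2.37] in DMM and 1.70-fold [1.64, 1.77] in sham. Its part of the connective tissue Fgf2 UMIs was 36.5% in DMM and 42.5% in sham. Of the UMIs of all genes in connective tissue, it held 15395663 of 76018477 in DMM and 23136954 of 76449971 in sham. Among clusters the order began with the Serpina1e cluster (197 CPM in DMM and 274 CPM in sham), followed by the Msmp cluster and then the Pcp4 and A2m clusters, and the intervals of the first and the next overlapped in both libraries. Per cell, thinned to 2000 UMIs, a Fgf2 UMI was found in 28.6% of DMM and 31.97% of sham cells of the chondrocyte-like class, against 0.235% of DMM and 0.741% of sham cells of the erythroid-like class. The unthinned shares were 73.2% of DMM and 81.2% of sham cells in the chondrocyte-like class, at median depths of 12395 UMIs in DMM and 13757 in sham, and 2.47% of DMM and 2.70% of sham cells in the erythroid-like class, at 9303 UMIs in DMM and 7753 in sham. The genes on the opposite strand of Fgf2 were far lower over connective tissue, with 5.34 CPM in DMM and 6.19 CPM in sham for Nudt6 and 5.04 CPM in DMM and 8.78 CPM in sham for Fgf2os.

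In DMM, Fgf2 was lower than in sham in all 9 named classes, but to different extents, and in the marrow stromal-like and perivascular-like classes the interval of the ratio spanned 0. The log2 ratio of DMM to sham was -0.38 [-0.45, -0.32] in the chondrocyte-like class, -0.46 [-0.56, -0.36] in the superficial zone class and -0.35 [-0.49, -0.22] in the hypertrophic class. These 3 values shrank to -0.22, -0.26 and -0.17 with median-of-ratios scaling, and to -0.085, -0.11 and -0.015 once the median of genes of like genomic span was subtracted, an alternative chosen after seeing the data. The gap was wider in the fibroblast-like class, where Fgf2 stood at 29.9 CPM [26.4, 33.8] in DMM and 95.6 CPM [89.5, 102] in sham, 3.19-fold [2.78, 3.67] lower in DMM. It was lower in 2 of the 3 clusters of the class, with 40.4 CPM in DMM and 131 CPM in sham in the Pi16 cluster and 35.5 CPM in DMM and 73.9 CPM in sham in the Ccl7 cluster. In the Ctla2a cluster the intervals overlapped, with 16.2 CPM [12.1, 21.4] in DMM and 19.3 CPM [9.63, 34.5] in sham. The Ctla2a cluster made up 349 of 1249 fibroblast-like cells in DMM and 65 of 1297 in sham, so the makeup of the class differed as well. The share of fibroblast-like cells with a Fgf2 UMI, thinned, was 5.94% of DMM and 15.1% of sham cells. Over the 19 clusters Fgf2 was lower in DMM in 17 and higher in 2, and the interval lay below 0 in 14. The median log2 ratio of all genes was itself below 0 in these clusters, between -0.19 and -0.03.

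Fgf18, the ligand tied to cartilage matrix formation, was low in the chondrocyte-like class, at 2.01 CPM in DMM and 2.07 CPM in sham, and high in the superficial zone. Within that zone it stood at 89.6 CPM [81.03, 98.9] in DMM and 113 CPM [105, 122] in sham in the Casr cluster and at 11.5 CPM in DMM and 16.3 CPM in sham in the Msmp cluster, the other cluster of the class. Relative to the remaining connective tissue, the Casr cluster was higher by 5.58-fold [4.97, 6.26] in DMM and 5.67-fold [5.17, 6.22] in sham. Its part of the Fgf18 UMIs was 25.7% in DMM and 32.7% in sham, and its part of all UMIs was 5.83% in DMM and 7.89% in sham. The next cluster was Pi16, a fibroblast-like cluster with 80.8 CPM [69.2, 93.9] in DMM and 88.7 CPM [79.9, 98.1] in sham, whose interval overlapped that of the Casr cluster in DMM only. The tendon or ligament-like class followed with 48.8 CPM in DMM and 73.6 CPM in sham. Thinned to 2000 UMIs, a Fgf18 UMI was found in 16.2% of DMM and 18.4% of sham cells of the Casr cluster, against 0% [0, 0.433] of DMM and 0.0673% of sham cells of the erythroid-like class. Unthinned, the shares were 34.7% of DMM and 40.2% of sham cells at 6727.5 UMIs in DMM and 6700 in sham, and 0.224% of DMM and 0.772% of sham cells in the erythroid-like class. In DMM, Fgf18 was lower in the superficial zone class as a whole (-0.46 [-0.64, -0.29], 51.3 CPM in DMM and 70.8 CPM in sham), in the fibroblast-like class (-0.54 [-0.73, -0.36], 45.99 CPM in DMM and 66.98 CPM in sham) and in the tendon or ligament-like class (-0.59 [-0.95, -0.24]). Each fibroblast-like cluster was lower in DMM, with 41.1 CPM in DMM and 51.5 CPM in sham in the Ccl7 cluster. The intervals overlapped in the Pi16 cluster and in the Ctla2a cluster, which had 27.6 CPM [22.0, 34.1] in DMM and 38.6 CPM [24.2, 58.4] in sham. The Ctla2a cluster made up 349 of 1249 fibroblast-like cells in DMM and 65 of 1297 in sham, so the makeup of the class differed as well. The superficial zone value came to -0.27 with median-of-ratios scaling and -0.25 after subtracting like span, and the tendon or ligament-like value ran from -1.13 to -0.047 over 10 alternatives. In the perivascular-like class it was 32.3 CPM in DMM and 25.3 CPM in sham, a log2 ratio of 0.35 [-0.24, 0.94] whose interval spanned 0.

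**Figure D2:**
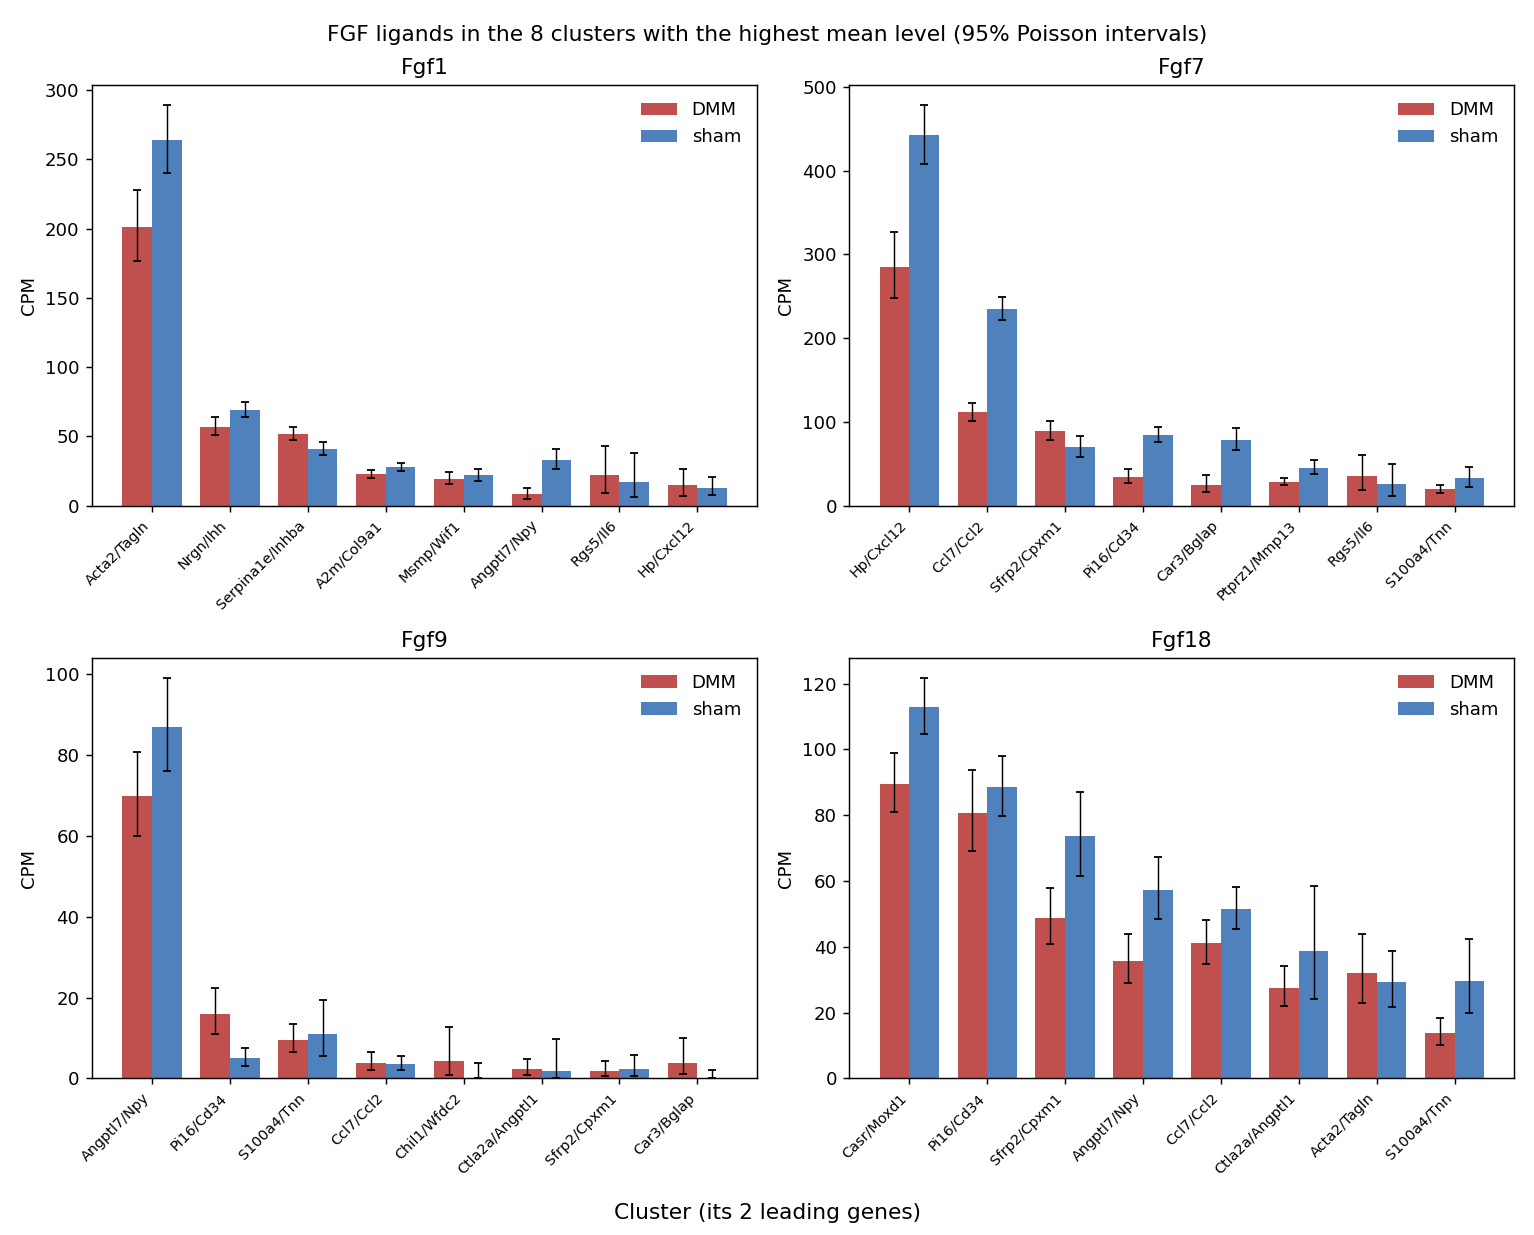
Levels of Fgf1, Fgf7, Fgf9 and Fgf18 in CPM in the 8 clusters with the highest mean of both libraries, DMM left of sham, with 95% Poisson intervals. Each ligand has a different leading cluster, and the leading cluster is the same in both libraries for each ligand.

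Fgf7, a paracrine ligand known from the mesenchyme beside epithelia, was highest in a marrow stromal-like and a fibroblast-like cluster and was low in the chondrocyte classes. The marrow stromal-like class, marked by Cxcl12 and Lepr, led in both libraries with 285 CPM [248, 326] in DMM and 442 CPM [408, 479] in sham. Relative to the rest of connective tissue it was higher by 19.02-fold [16.4, 22.04] in DMM and 16.2-fold [14.8, 17.7] in sham. The Ccl7 cluster of fibroblast-like cells came next with 112 CPM [101, 123] in DMM and 235 CPM [221, 249] in sham, and its interval did not meet that of the marrow stromal-like class in either library. Of all connective tissue Fgf7 UMIs, this cluster held 29.7% in DMM and 42.9% in sham. The tendon or ligament-like class had 89.1 CPM in DMM and 70.3 CPM in sham, while the chondrocyte-like class had 0.844 CPM in DMM and 1.12 CPM in sham. Thinned, a Fgf7 UMI was found in 33.7% of DMM and 45.98% of sham cells of the marrow stromal-like class and 0% [0, 0.433] of DMM and 0.0673% of sham cells of the erythroid-like class. The unthinned shares were 58.8% of DMM and 84.04% of sham cells at 6175.5 UMIs in DMM and 7146.5 in sham, against 0.336% of DMM and 0.257% of sham cells in the erythroid-like class. Fam227b, on the opposite strand of Fgf7, was at 26.7 CPM in DMM and 25.8 CPM in sham in the marrow stromal-like class.

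In the fibroblast-like class Fgf7 was 60.3 CPM [55.3, 65.7] in DMM and 157 CPM [149, 165] in sham, 2.60-fold [2.35, 2.88] lower in DMM. The Ccl7 cluster (-1.07 [-1.24, -0.91]) and the Pi16 cluster (-1.28 [-1.66, -0.91], 34.8 CPM in DMM and 84.2 CPM in sham) both showed the gap. In the Ctla2a cluster the intervals overlapped, with 18.5 CPM [14.0, 24.0] in DMM and 29.8 CPM [17.4, 47.8] in sham. There 1 cell gave 58.8% of the sham UMIs. The Ctla2a cluster made up 349 of 1249 fibroblast-like cells in DMM and 65 of 1297 in sham, so the makeup of this class differed as well. In the osteoblast-like class Fgf7 was 28.2 CPM [24.3, 32.5] in DMM and 59.3 CPM [52.4, 66.98] in sham, 2.10-fold [1.74, 2.55] lower in DMM. Both osteoblast-like clusters were lower in DMM, with 25.1 CPM in DMM and 79.00 CPM in sham in the Car3 cluster, whose leading genes include Bglap, and 28.8 CPM in DMM and 45.2 CPM in sham in the Ptprz1 cluster. The Ptprz1 cluster held 878 of 959 osteoblast-like cells in DMM and 434 of 595 in sham, so the class was weighted differently in the libraries. The marrow stromal-like class was 1.55-fold [1.32, 1.82] lower in DMM, but less than 1.5-fold lower with thinning, with doublets kept or with like span subtracted. The tendon or ligament-like class had the opposite sign, with 248 UMIs in DMM and 127 in sham and a log2 ratio of 0.34 [0.03, 0.66], but this sign turned under 3 alternative settings, so no direction is given for it.

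Fgf9, a ligand needed for skeletal and joint development, was concentrated in 1 small cluster. The Angptl7 cluster, an unnamed group of 349 DMM and 356 sham cells led by Angptl7, Npy and Slurp1, held 69.7 CPM [59.9, 80.7] in DMM and 86.98 CPM [75.98, 99.1] in sham. Relative to the remaining connective tissue Fgf9 was higher by 42.7-fold [33.7, 54.2] in DMM and 75.6-fold [58.6, 98.2] in sham. Its part of the Fgf9 UMIs was 59.9% in DMM and 72.6% in sham, while its part of all UMIs was 3.38% in DMM and 3.38% in sham. Thinned, a Fgf9 UMI was found in 11.7% of DMM and 15.2% of sham cells of this cluster, and in 0% [0, 0.433] of DMM and 0% [0, 0.248] of sham cells of the erythroid-like class. Unthinned, the shares were 23.8% of DMM and 30.1% of sham cells at 6748 UMIs in DMM and 6391.5 in sham, against 0% [0, 0.413] of DMM and 0.129% of sham cells in the erythroid-like class. No Fgf9 UMI was seen in the Hp cluster (marrow stromal-like) or the Rgs5 cluster (perivascular-like) of either library, and a count of 0, with a limit of 3 counts, allows up to 4.00 CPM in DMM and 2.15 CPM in sham in the first and 8.22 CPM in DMM and 8.69 CPM in sham in the second. Within the Angptl7 cluster Fgf9 was lower in DMM, with a log2 ratio of -0.32 [-0.61, -0.03]. In the Pi16 cluster it was higher, with 16.0 CPM in DMM and 4.98 CPM in sham, but 32.4% of the DMM UMIs came from 1 cell. Over connective tissue the libraries differed by less than the counting error (-0.04 [-0.28, 0.19]).

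Fgf1, a ligand without a classical secretion signal that binds all FGF receptors, was highest in a cluster of perivascular-like cells. The Acta2 cluster, led by the smooth muscle genes Acta2, Tagln and Myh11, had 201 CPM [177, 228] in DMM and 264 CPM [239.9, 289] in sham. Relative to the rest of connective tissue it was higher by 11.6-fold [10.04, 13.3] in DMM and 11.7-fold [10.6, 13.04] in sham, and next came the Nrgn cluster of hypertrophic chondrocyte-like cells with 57.1 CPM [50.97, 63.8] in DMM and 69.3 CPM [63.7, 75.2] in sham. Those intervals did not overlap in either library. The Acta2 cluster held 244 of the 1546 connective tissue Fgf1 UMIs in DMM and 450 of 2128 in sham. The Serpina1e cluster held 485 in DMM and 279 in sham, and the Nrgn cluster 314 in DMM and 575 in sham. The other perivascular-like cluster, Rgs5, was far lower, with 21.9 CPM in DMM and 17.4 CPM in sham. Thinned, a Fgf1 UMI was found in 29.7% of DMM and 38.4% of sham cells of the Acta2 cluster and 0.235% of DMM and 0.135% of sham cells of the erythroid-like class. Unthinned, the shares were 53.6% of DMM and 68.4% of sham cells at 4640.5 UMIs in DMM and 5195.5 in sham, against 0.561% of DMM and 0.836% of sham cells in the erythroid-like class. Arhgap26, the gene on the opposite strand, was also high in the perivascular-like class (57.05 CPM in DMM and 134 CPM in sham), and the sharing of reads between both was not tested.

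Fgf1 was lower in DMM in the perivascular-like class (-0.48 [-0.70, -0.25]), with 159.7 CPM in DMM and 222 CPM in sham, and the value was -0.20 with like span subtracted. The Acta2 cluster of that class was lower in DMM, with 201 CPM in DMM and 264 CPM in sham. In the Rgs5 cluster the intervals overlapped, with 21.9 CPM [9.46, 43.2] in DMM and 17.4 CPM [6.38, 37.8] in sham. The Rgs5 cluster made up 71 of 323 perivascular-like cells in DMM and 70 of 386 in sham. In the hypertrophic class Fgf1 was 57.1 CPM in DMM and 69.3 CPM in sham (-0.28 [-0.48, -0.08]), a sign that turned (0.13) when the median of genes of like span was subtracted. There the top cell gave 6.37% of the Fgf1 UMIs in DMM and 15.1% in sham. Single clusters went both ways. In the Angptl7 cluster it was 8.18 CPM in DMM and 32.9 CPM in sham (-2.01 [-2.77, -1.30]), and in the Serpina1e cluster, which carries Col10a1 and Inhba among its leading genes, it was 51.8 CPM in DMM and 41.2 CPM in sham (0.33 [0.12, 0.55]). Across the 19 clusters Fgf1 was higher in DMM in 5 and lower in 14.

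Fgfr3, the receptor that restrains chondrocyte growth, was highest in the chondrocyte classes and 1 unnamed cluster. It stood at 159.9 CPM [149, 171] in DMM and 163 CPM [154, 172] in sham in the hypertrophic class, 141 CPM [135, 147] in DMM and 145 CPM [139.8, 149.6] in sham in the chondrocyte-like class and 97.9 CPM [91.4, 105] in DMM and 126 CPM [119, 132] in sham in the superficial zone class. The unnamed Chil1 cluster was at the same height with 146 CPM [119, 177] in DMM and 172 CPM [147, 199] in sham, and the intervals of the 4 clusters with the highest levels overlapped from each to the next. In the fibroblast-like class it was low, with 5.46 CPM in DMM and 3.73 CPM in sham, beside 2.02 CPM in DMM and 1.504 CPM in sham in the erythroid-like class. Fgfr3 in the osteoblast-like class lay between, with 69.8 CPM in DMM and 68.4 CPM in sham. Thinned, a Fgfr3 UMI was found in 29.2% of DMM and 26.97% of sham cells of the hypertrophic class, 0.836% of DMM and 0.723% of sham cells of the fibroblast-like class and 0.470% of DMM and 0.539% of sham cells of the erythroid-like class. Unthinned, the shares were 87.4% of DMM and 88.6% of sham cells at 16713 UMIs in DMM and 19371 in sham for the hypertrophic class, and 2.02% of DMM and 1.54% of sham cells for the erythroid-like class.

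Between the libraries Fgfr3 differed little in the chondrocyte-like (-0.04 [-0.12, 0.04]) and hypertrophic (-0.03 [-0.15, 0.10]) classes. In the superficial zone class it was lower in DMM, with a log2 ratio of -0.36 [-0.48, -0.23], and the Casr cluster carried the wider gap, with 80.6 CPM in DMM and 118 CPM in sham. The Serpina1e cluster was also lower, with 77.3 CPM in DMM and 111 CPM in sham. In the synovial lining-like class Fgfr3 was 6.34 CPM in DMM and 12.2 CPM in sham, a log2 ratio of -0.95 [-1.53, -0.35].

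Fgfr1 was found in every cluster and was highest in bone-forming and fibroblast-like cells. Its level was 705 CPM [683, 727] in DMM and 723 CPM [691, 757] in sham in the Ptprz1 cluster, an osteoblast-like cluster that also carries Mmp13 and Postn, and 505 CPM [482, 528] in DMM and 632 CPM [609.9, 655] in sham in the Ccl7 cluster. The unnamed Chil1 cluster was close to these, with 529.6 CPM in DMM and 489 CPM in sham, and the Rgs5 cluster had the lowest level, 104 CPM in DMM and 63.7 CPM in sham. Chondrocyte classes lay in the lower part of the range, with 228 CPM in DMM and 279.6 CPM in sham in the chondrocyte-like class and 183 CPM in DMM and 229 CPM in sham in the hypertrophic class. Thinned, 67.4% of DMM and 65.9% of sham cells of the osteoblast-like class held a Fgfr1 UMI, against 1.41% of DMM and 0.943% of sham cells of the erythroid-like class. Unthinned, the shares were 90.1% of DMM and 87.1% of sham cells at 5846 UMIs in DMM and 5420 in sham, and 4.93% of DMM and 3.86% of sham cells in the erythroid-like class.

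In DMM, Fgfr1 was lower in the fibroblast-like (-0.40 [-0.46, -0.34]), chondrocyte-like (-0.30 [-0.36, -0.24]) and hypertrophic (-0.33 [-0.44, -0.22]) classes. After the median of genes of like span was subtracted, these came to -0.20, -0.000485 and 0.011. In the osteoblast-like class it was 653 CPM in DMM and 588 CPM in sham, a log2 ratio of 0.15 [0.08, 0.22], which came to -0.0073 once cells were thinned to equal depth. Neither cluster of that class was higher in DMM, with 705 CPM in DMM and 723 CPM in sham in the Ptprz1 cluster. The Car3 cluster had 368 CPM in DMM and 402 CPM in sham. The Ptprz1 cluster held 878 of 959 osteoblast-like cells in DMM and 434 of 595 in sham, so the class was weighted differently in the libraries. In the S100a4 cluster it was 379.6 CPM in DMM and 308 CPM in sham, a log2 ratio of 0.30 [0.12, 0.48].

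Fgfr2, whose isoforms receive Fgf7 or the cartilage ligands and which is known for roles in bone growth, was led by the marrow stromal-like class. There it stood at 745 CPM [685, 809.8] in DMM and 794 CPM [748, 842] in sham, higher than in the rest of connective tissue by 3.89-fold [3.57, 4.23] in DMM and 3.86-fold [3.62, 4.10] in sham. The Ptprz1 cluster followed with 463 CPM in DMM and 515 CPM in sham, and the tendon or ligament-like class with 402 CPM in DMM and 509 CPM in sham. Fgfr2 was higher in the superficial zone class (239 CPM in DMM and 312 CPM in sham) than in the chondrocyte-like class (161 CPM in DMM and 166 CPM in sham), and the Acta2 cluster (62.7 CPM in DMM and 70.9 CPM in sham) and the Rgs5 cluster (95.9 CPM in DMM and 60.9 CPM in sham) were at the low end. The marrow stromal-like class thus had the highest level of Fgf7 and of Fgfr2 in both libraries, although 3′ counts do not show which Fgfr2 isoform was made. Thinned, 67.3% of DMM and 77.01% of sham cells of that class held a Fgfr2 UMI, against 4.82% of DMM and 5.72% of sham cells of the erythroid-like class. Unthinned, the shares were 88.6% of DMM and 96.3% of sham cells and 21.6% of DMM and 23.3% of sham cells. In DMM, Fgfr2 was lower in the superficial zone class (-0.39 [-0.47, -0.31]), the osteoblast-like class (-0.20 [-0.28, -0.12]) and the tendon or ligament-like class (-0.34 [-0.47, -0.21]), but with the median of genes of like span subtracted these came to 0.046, 0.15 and -0.018. The Car3 osteoblast-like cluster showed the widest of the named gaps, with 269.8 CPM in DMM and 471 CPM in sham (-0.80 [-1.002, -0.61]). In the chondrocyte-like (-0.05 [-0.12, 0.03]) and fibroblast-like (-0.04 [-0.18, 0.09]) classes the interval spanned 0.

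The mix of the 3 receptors, as shares of their summed UMIs, set the classes apart more than it set DMM apart from sham. In the fibroblast-like class Fgfr1 gave 81.8% [80.7, 82.8] in DMM and 85.4% [84.6, 86.2] in sham, and Fgfr3 gave 0.965% [0.713, 1.28] in DMM and 0.521% [0.365, 0.720] in sham. In the hypertrophic class Fgfr3 gave 35.6% [33.7, 37.5] in DMM and 32.1% [30.7, 33.6] in sham. In the chondrocyte-like class it gave 26.6% [25.6, 27.6] in DMM and 24.5% [23.8, 25.2] in sham, and in the superficial zone class 17.8% [16.7, 18.9] in DMM and 18.5% [17.6, 19.4] in sham. Fgfr2 was the leading receptor by UMIs in the marrow stromal-like class, with 76.2% in DMM and 74.6% in sham, and in the Casr cluster of the superficial zone, with 49.6% in DMM and 51.99% in sham. In the Msmp cluster of that class Fgfr1 led, with 42.9% [40.9, 44.8] in DMM and 42.5% [40.9, 44.2] in sham, against 37.6% in DMM and 38.97% in sham for Fgfr2. Over all connective tissue Fgfr1 gave 51.8% [51.4, 52.3] in DMM and 50.4% [49.9, 50.8] in sham. UMIs per gene depend on priming at each gene, so these shares compare classes and not the amounts of the receptors.

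**Figure D3:**
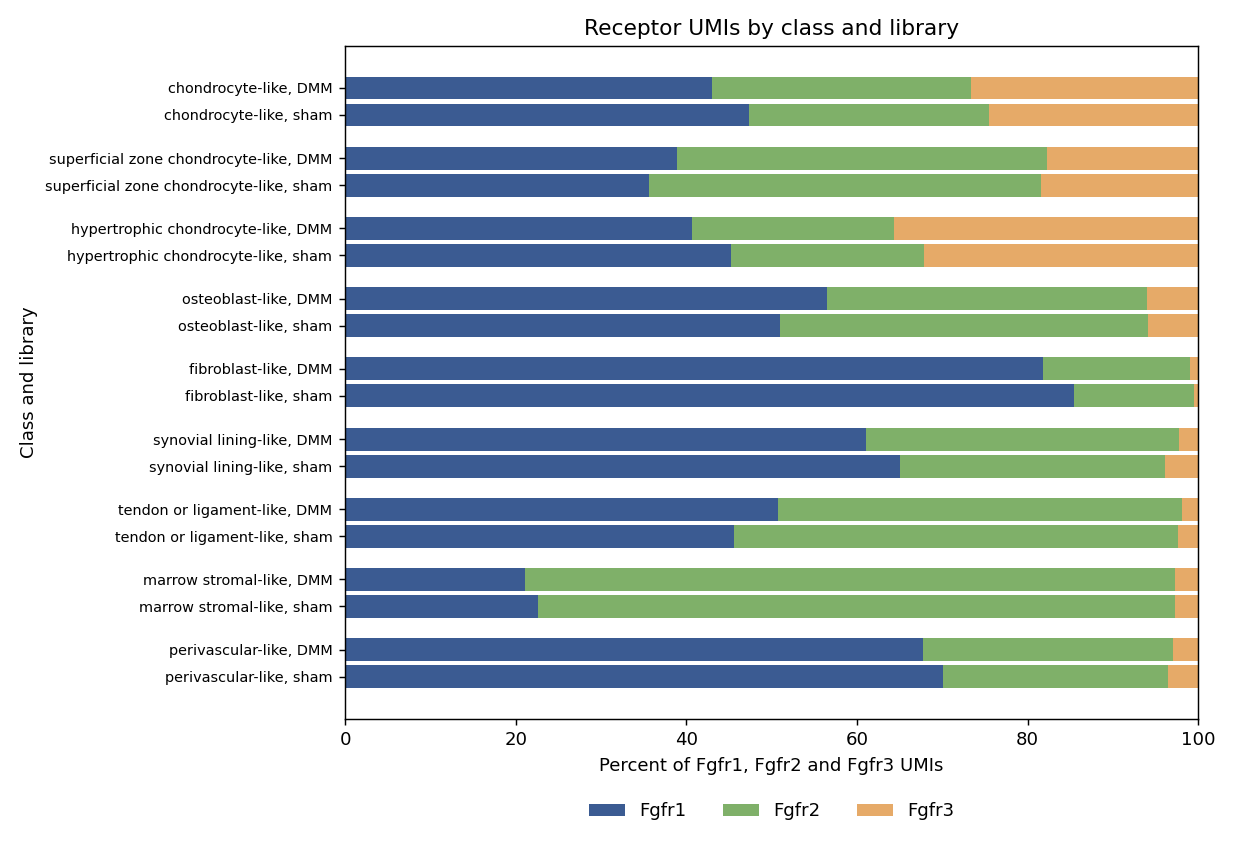
Share of Fgfr1, Fgfr2 and Fgfr3 in the summed receptor UMIs (percent) in 9 classes, the DMM bar above the sham bar of each class. Fgfr3 takes a visible share in the chondrocyte-like classes and close to none in the fibroblast-like class in both libraries.

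The ranking of clusters held from one library to the other. Spearman's rho between the DMM and the sham levels over the 19 clusters was 0.981 for Fgfr2, 0.977 for Fgfr3, 0.954 for Fgfr1, 0.923 for Fgf2, 0.898 for Fgf1, 0.872 for Fgf18, 0.860 for Fgf7 and 0.626 for Fgf9. The clusters share a library, a depth and a joint clustering, so these are descriptions. Among pairs of the 8 genes, Fgf18 and Fgfr3 ran in opposite directions over the clusters (Pearson's r of log2(CPM + 1) = -0.62 in DMM and -0.53 in sham), while Fgf2 and Fgfr3 ran together (r = 0.62 in DMM and 0.43 in sham). Fgf1 and Fgfr1 ran in opposite directions (r = -0.60 in DMM and -0.54 in sham).

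Among the other 11292 genes compared over the 19 clusters, the closest pattern to Fgfr3 was that of Tspan13 (r = 0.91 in DMM and 0.91 in sham), followed by Spata1, Cep126 and the cartilage genes Snorc and Col11a1. The gene closest to Fgf2 was Nrtn (r = 0.88 in DMM and 0.88 in sham), followed by Slc22a4, Sec14l1, Scin and the heparan sulfate proteoglycan Sdc4. For Fgf7 it was H2-T23 (r = 0.91 in DMM and 0.91 in sham), followed by Fmo1, Vcam1, Cblb and Sh3rf3. Ephx1 was closest to Fgf18 (r = 0.88 in DMM and 0.83 in sham), Mdh1 to Fgf1 (r = 0.81 in DMM and 0.80 in sham) and Necab1 to Fgf9 (r = 0.81 in DMM and 0.80 in sham). Tns3 was closest to Fgfr2 (r = 0.83 in DMM and 0.84 in sham) and Fgd5 to Fgfr1 (r = 0.79 in DMM and 0.80 in sham).

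Summed over all connective tissue cells, the 8 genes were lower in DMM or level with sham. Such sums cannot tell fewer cells of a type from less RNA per cell. Fgf2 had 7352 UMIs in DMM and 12353 in sham, or 96.7 CPM [94.5, 98.9] in DMM and 162 CPM [159, 164] in sham. Fgf7 had 1343 UMIs in DMM and 2667 in sham, or 17.7 CPM [16.7, 18.6] in DMM and 34.9 CPM [33.6, 36.2] in sham. These were 1.67-fold [1.62, 1.72] lower for Fgf2 and 1.97-fold [1.85, 2.11] lower for Fgf7, the only members past 1.5-fold. Of all 16529 genes with at least 50 UMIs over both libraries, 15.3% were at least 1.5-fold lower and 4.22% at least 1.5-fold higher in DMM, and of the 8 members, all of which reached 50 UMIs, 2 were lower and 0 higher. The median log2 ratio was -0.43 for the 8 members and -0.16 for all genes.

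The remaining members were closer to sham. The log2 ratio was -0.45 [-0.55, -0.36] for Fgf1 (20.3 CPM in DMM and 27.8 CPM in sham), -0.42 [-0.52, -0.33] for Fgf18 (20.4 CPM in DMM and 27.3 CPM in sham) and -0.44 [-0.49, -0.39] for Fgfr3 (72.3 CPM in DMM and 98.1 CPM in sham). Fgfr1 (289.7 CPM in DMM and 319 CPM in sham) and Fgfr2 (197 CPM in DMM and 217 CPM in sham) had log2 ratios of -0.14 [-0.17, -0.11] and -0.14 [-0.17, -0.10], near the median of all genes, and median-of-ratios scaling moved them to 0.016 for Fgfr1 and 0.020 for Fgfr2. With that scaling Fgf2 was at -0.58 and Fgf7 at -0.83. When every cluster was given the same share of UMIs in both libraries, an alternative chosen after seeing the data, the log2 ratio was -0.50 for Fgf2, -0.79 for Fgf7, -0.22 for Fgf1, -0.36 for Fgf18 and -0.17 for Fgfr3. The ratios of all genes also followed the span of the gene, with a Spearman's rho of -0.388 between span and log2 ratio over connective tissue, with longer genes tending to be lower in DMM. With the median of genes of like span subtracted, Fgf2 was at -0.43, Fgf7 at -0.71, Fgf18 at -0.27, Fgfr3 at -0.40 and Fgf1 at -0.13, while Fgfr1 (0.17), Fgfr2 (0.23) and Fgf9 (0.18) changed sign.

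**Figure D4:**
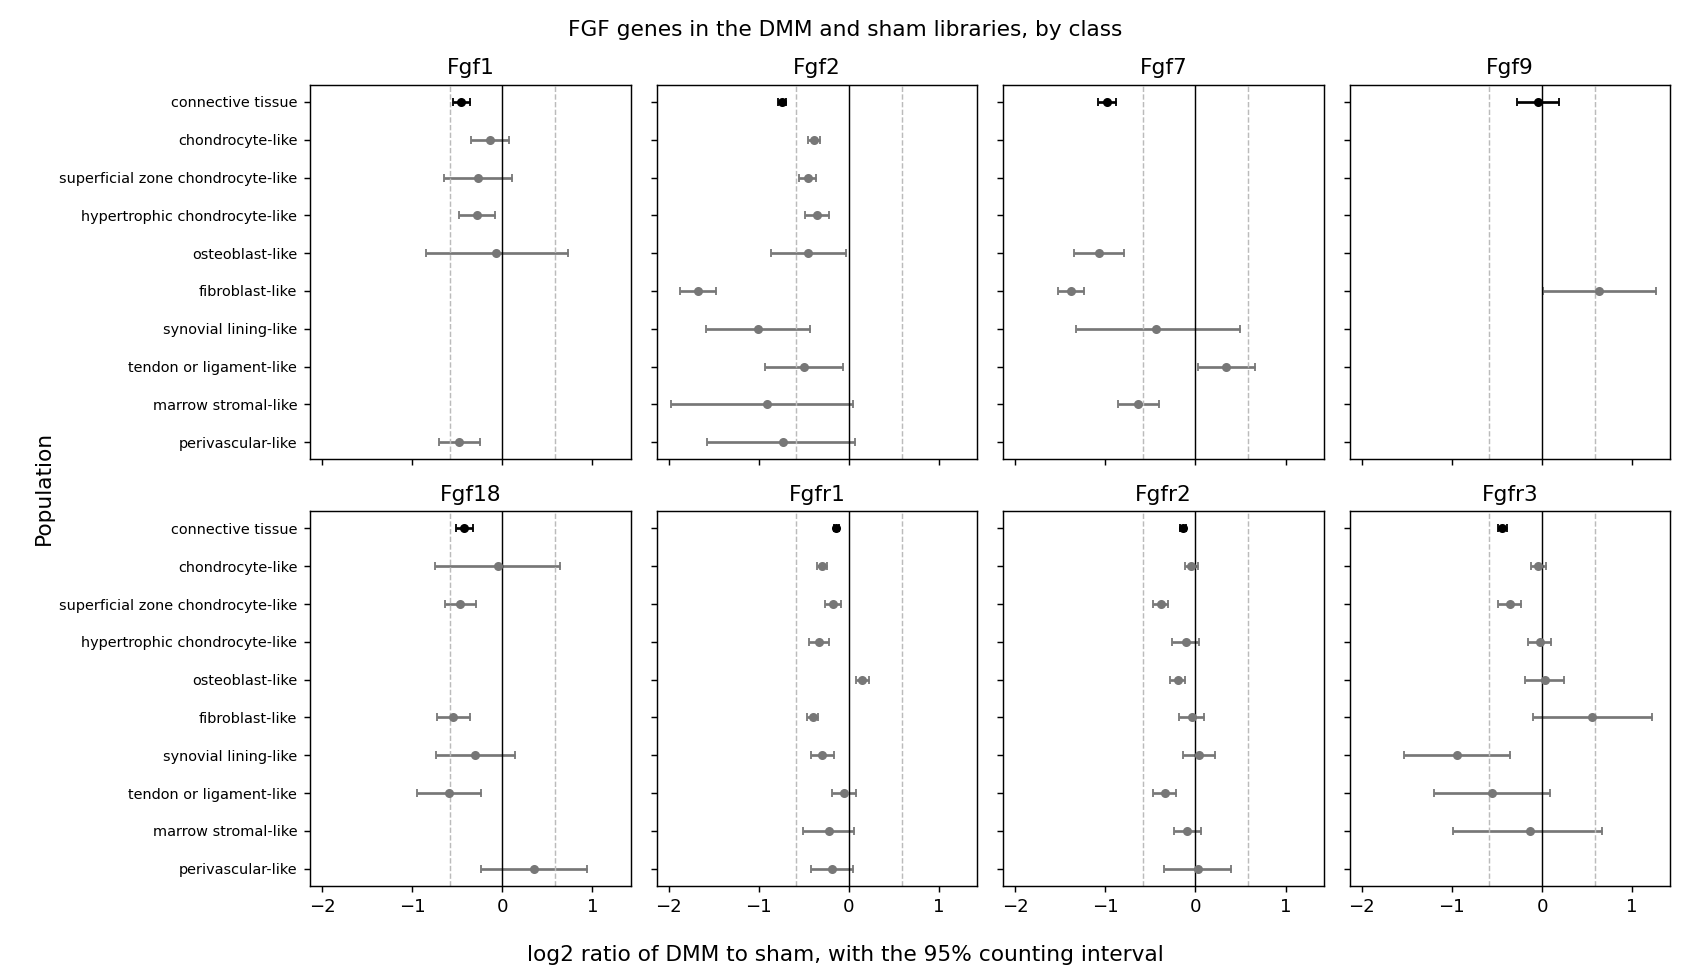
Log2 ratio of DMM to sham with its 95% counting interval for each FGF gene over connective tissue and in 9 classes, where both libraries together had at least 50 UMIs; dashed lines mark 1.5-fold. Fgf2 lies left of 0 in all 9 classes and lowest in the fibroblast-like class, while Fgfr1, Fgfr2 and Fgfr3 stay within the dashed lines in most classes.

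By class, the count of members past 1.5-fold was read against all genes of the same class. In the chondrocyte-like class none of 6 measured members was past it, where 9.59% of genes were lower and 1.63% higher. In the superficial zone class none of 6 was past it (16.3% of genes lower, 3.14% higher), and in the hypertrophic class none of 5 (14.6% lower, 2.18% higher). In the fibroblast-like class 2 of 7 were lower, Fgf2 and Fgf7, and 1 higher, Fgf9, where 9.59% of genes were lower and 7.02% higher. That Fgf9 value rested on 55 UMIs in DMM and 39 in sham, and 20.00% of those in DMM came from 1 cell. In the synovial lining-like class 2 of 6 were lower, Fgf2 (6.34 CPM in DMM and 12.8 CPM in sham) and Fgfr3, where 12.6% of genes were lower and 6.61% higher. In the osteoblast-like class 1 of 6 was lower, Fgf7 (16.2% of genes lower, 4.92% higher), and in the tendon or ligament-like class 1 of 6, Fgf18 (13.4% of genes lower, 4.9% higher). In the marrow stromal-like class 2 of 5 were lower, Fgf7 and Fgf2 (16.0 CPM in DMM and 30.1 CPM in sham), where 12.0% of genes were lower and 11.3% higher, and in the perivascular-like class 1 of 5, Fgf2 (10.6% of genes lower, 7.15% higher). Over the alternatives the lower calls in the fibroblast-like, osteoblast-like and synovial lining-like classes stayed past 1.5-fold. Those of Fgf18 in the tendon or ligament-like class, Fgf7 and Fgf2 in the marrow stromal-like class, Fgf2 in the perivascular-like class and the higher call of Fgf9 each missed it under at least 1 alternative.

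Among the other ligands, Fgf10, which like Fgf7 binds an isoform of Fgfr2, had the widest gap of those measured. It was 3.18 CPM in DMM and 8.72 CPM in sham, a log2 ratio of -1.45 [-1.67, -1.24]. Fgf10 was a fibroblast transcript, with 24.1 CPM in DMM and 64.3 CPM in sham in the fibroblast-like class and 35.5 CPM in DMM and 86.4 CPM in sham in its Ccl7 cluster, the cluster that also led the class in Fgf7. Fgf16 was 1.04 CPM in DMM and 0.523 CPM in sham, a log2 ratio of 0.99 [0.42, 1.58], from 79 UMIs in DMM and 40 in sham. Of these UMIs, 1 cell gave 13.9% in DMM and 1 cell gave 10% in sham. In the Ctla2a cluster Fgf16 was 10.7 CPM in DMM and 1.75 CPM in sham. That sham value was below the 5.26 CPM that 3 counts make in the 65 sham cells of the cluster. Fgf20 was 0.908 CPM in DMM and 1.35 CPM in sham, a log2 ratio of -0.57 [-1.03, -0.12], from 69 UMIs in DMM and 103 in sham. Fgf22 (0.316 CPM in DMM and 0.445 CPM in sham) had 24 UMIs in DMM and 34 in sham. Fgf15 (0.171 CPM in DMM and 0.183 CPM in sham) had 13 UMIs in DMM and 14 in sham. Of the list of 13 other ligands, 4 reached 50 UMIs, 1 was past 1.5-fold higher and 1 lower. Of all genes over connective tissue, 15.3% were lower and 4.22% higher.

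The intracellular FGF homologues, which act on ion channels and not on FGF receptors, were led by Fgf13 with 20.5 CPM in DMM and 23.1 CPM in sham. It was highest in the perivascular-like (99.5 CPM in DMM and 190.1 CPM in sham), tendon or ligament-like (99.5 CPM in DMM and 175 CPM in sham) and osteoblast-like (125 CPM in DMM and 141 CPM in sham) classes. Fgf14 was 4.91 CPM in DMM and 3.81 CPM in sham, a log2 ratio of 0.37 [0.14, 0.59], and in the superficial zone class it was 12.1 CPM in DMM and 1.59 CPM in sham, where 1 cell gave 76.5% of the sham UMIs. Fgf12 was 1.18 CPM in DMM and 0.641 CPM in sham, a log2 ratio of 0.89 [0.37, 1.42], and Fgf11 was 1.38 CPM in DMM and 1.10 CPM in sham.

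Fgfrl1, a receptor without a kinase domain that is strong in cartilage, was 46.00 CPM in DMM and 66.1 CPM in sham, a log2 ratio of -0.52 [-0.59, -0.46]. It stood at 90.1 CPM in DMM and 110.3 CPM in sham in the chondrocyte-like class and 86.5 CPM in DMM and 88.1 CPM in sham in the superficial zone class, but at 8.08 CPM in DMM and 10.4 CPM in sham in the fibroblast-like class. Fgfr4 (0.829 CPM in DMM and 0.863 CPM in sham) and the co-receptors of the endocrine FGFs, Kl (0.210 CPM in DMM and 0.419 CPM in sham) and Klb (0.237 CPM in DMM and 0.275 CPM in sham), were at or below 1 CPM.

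The list of feedback inhibitors of FGF signalling, which includes the Sprouty, Spred and Dusp genes, had the lowest median of the 5 lists with 9 or more measured genes. Lists with fewer measured genes are outside this ranking, and the 8 members had a lower median over connective tissue, -0.43. The list of feedback inhibitors also holds Flrt2 and Flrt3, which are partners of FGF receptors and not inhibitors. Over connective tissue 0 genes of the list were at least 1.5-fold higher and 3 at least 1.5-fold lower (Dusp4, Dusp5 and Flrt3) in DMM among 12 measured of 13. The median log2 ratio was -0.40, beside -0.16 for all genes, of which 15.3% were lower and 4.22% higher. In the superficial zone class 0 were at least 1.5-fold higher and 4 at least 1.5-fold lower (Spry1, Spred3, Dusp5 and Dusp6) in DMM among 8 measured of 13, with a median log2 ratio of -0.47, beside -0.20 for all genes there, of which 16.3% were lower and 3.14% higher. The inhibitor Spry1 had the widest gap, with 3.45 CPM in DMM and 10.8 CPM in sham, a log2 ratio of -1.65 [-2.28, -1.06] in the superficial zone class. In the chondrocyte-like class 0 were at least 1.5-fold higher and 2 at least 1.5-fold lower (Spry4 and Dusp6) in DMM among 9 measured of 13, with a median log2 ratio of -0.36, beside -0.16 for all genes there, of which 9.59% were lower and 1.63% higher. Flrt2, a transmembrane partner of FGF receptors, was 4.80 CPM in DMM and 20.8 CPM in sham, a log2 ratio of -2.12 [-2.67, -1.57] in the synovial lining-like class. Flrt3 was 4.65 CPM in DMM and 11.3 CPM in sham, a log2 ratio of -1.28 [-1.98, -0.61] in the osteoblast-like class. Spry4 was 14.01 CPM in DMM and 27.7 CPM in sham, a log2 ratio of -0.98 [-1.62, -0.35] in the tendon or ligament-like class.

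Receptor adaptors and cascade genes differed less over connective tissue, where 1 was at least 1.5-fold higher (Hras) and 1 at least 1.5-fold lower (Gab1) in DMM among 16 measured of 16, with a median log2 ratio of -0.25, beside 15.3% of all genes lower and 4.22% higher. The gene below that fold was Gab1, a docking adaptor, with 137 CPM in DMM and 244 CPM in sham, a log2 ratio of -0.83 [-0.86, -0.79]. The exchange factor Sos1 was 8.73 CPM in DMM and 16.5 CPM in sham, a log2 ratio of -0.92 [-1.42, -0.44] in the hypertrophic class. Frs2, the adaptor that sits on the receptor, was 52.8 CPM in DMM and 89.6 CPM in sham, a log2 ratio of -0.76 [-1.10, -0.43] in the tendon or ligament-like class. Among target transcription factors over connective tissue 0 were at least 1.5-fold higher and 1 at least 1.5-fold lower (Myc) in DMM among 9 measured of 9, with a median log2 ratio of -0.10, against the same shares of all genes. Myc was 8.74 CPM in DMM and 19.7 CPM in sham, a log2 ratio of -1.17 [-1.57, -0.79] in the superficial zone class. Etv1 was 4.60 CPM in DMM and 10.55 CPM in sham, a log2 ratio of -1.20 [-1.85, -0.53] in the synovial lining-like class. Fosl1 in the tendon or ligament-like class was 35.2 CPM in DMM and 16.0 CPM in sham, a log2 ratio of 1.13 [0.52, 1.78]. Snai1 in the marrow stromal-like class was 86.7 CPM in DMM and 44.4 CPM in sham, a log2 ratio of 0.97 [0.44, 1.49].

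Genes for heparan sulfate and its carriers, on which FGF binding depends, had members past the fold on both sides in a count near that of all genes (15.3% lower, 4.22% higher). Of the FGF-binding proteins and proteoglycans over connective tissue 1 was at least 1.5-fold higher (Sdc1) and 2 at least 1.5-fold lower (Gpc3 and Gpc6) in DMM among 10 measured of 11, with a median log2 ratio of -0.21. The glypican Gpc1 was 35.9 CPM in DMM and 13.98 CPM in sham, a log2 ratio of 1.36 [1.06, 1.66] in the fibroblast-like class. Gpc6 was 167 CPM in DMM and 335 CPM in sham, a log2 ratio of -1.002 [-1.12, -0.89] in the osteoblast-like class, and Gpc3 was 19.4 CPM in DMM and 47.03 CPM in sham, a log2 ratio of -1.28 [-1.80, -0.77] in the tendon or ligament-like class. Fgfbp3, a carrier protein, was 2.55 CPM in DMM and 4.82 CPM in sham, a log2 ratio of -0.92 [-1.91, -0.01] in the hypertrophic class. Of the heparan sulfate enzymes over connective tissue 0 were at least 1.5-fold higher and 1 at least 1.5-fold lower (Hs6st2) in DMM among 12 measured of 12, with a median log2 ratio of -0.27. The sulfotransferase Hs6st2 was 2.19 CPM in DMM and 6.54 CPM in sham, a log2 ratio of -1.58 [-2.39, -0.83] in the superficial zone class. Hs6st1 was 9.20 CPM in DMM and 16.7 CPM in sham, a log2 ratio of -0.86 [-1.34, -0.36] in the synovial lining-like class. The epimerase Glce was 11.9 CPM in DMM and 19.4 CPM in sham, a log2 ratio of -0.71 [-1.07, -0.37] in the superficial zone class. The sulfatase Sulf1 was 215 CPM in DMM and 387 CPM in sham, a log2 ratio of -0.85 [-1.11, -0.59] in the marrow stromal-like class, where 1 cell gave 21.7% of the DMM UMIs.

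Procr, whose protein was stained for cell sorting in the study's protocol, was used to divide the superficial zone class. A Procr UMI was found in 61 of 1001 DMM cells and 90 of 1319 sham cells of the class. Fgf18 was 75.2 CPM with and 49.5 CPM without a Procr UMI in DMM, a log2 ratio of 0.60 [0.12, 1.05], and 104 CPM with and 67.9 CPM without a Procr UMI in sham, a log2 ratio of 0.62 [0.28, 0.94]. With cells thinned to 2000 UMIs the log2 ratios were 0.82 [-1.08, 2.21] in DMM and 0.62 [-0.84, 1.77] in sham, so that both intervals included 0. Fgf2 was 185 CPM with and 151 CPM without a Procr UMI in DMM, and 203 CPM with and 211 CPM without a Procr UMI in sham. In the unnamed Serpina1e cluster the Fgf18 ratio was 1.13 [0.54, 1.69] in DMM and -0.62 [-1.78, 0.35] in sham, with opposite signs. In the superficial zone class the Fgf2 ratio in DMM had the opposite sign after thinning, at -0.69.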

How the data were processed

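The deposited data were UMI counts per gene and cell, made by the authors with Cell Ranger 7.1.0 per the file headers, whereas the submitters' processing notes name Cell Ranger 3.0.1 with Seurat, STAR, HTSeq, DESeq2 and the build mm10. Whether intronic reads or strand were used in counting is not given in the sources used here. The DMM library held 11076 barcodes and 97346999 UMIs and the sham library 11362 barcodes and 106799078 UMIs, with 24 barcodes shared. The 6 columns of a bulk table matched no sample and were not used, and the periosteum samples were not analysed here.

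A minimum of 500 genes and a limit of 10% mitochondrial UMIs were set for each cell, and Scrublet (as in scanpy 1.11.5) marked 360 DMM and 463 sham doublets for removal. After scaling each cell to 10000 counts, 2000 variable genes were taken without the 8 FGF genes and the 82 pathway genes, and 30 principal components, 15 neighbours and Leiden clustering at resolution 1.0 (seed 1, leidenalg 0.10.2, igraph 0.11.9) gave the clusters. Clusters were named from 21 marker lists where at least 3 markers of a list passed and the score was at least 0.75, and stayed unnamed where another type had more markers than their own among the 10 leading genes. An unnamed cluster was counted as connective tissue where at least 50% of its cells had a Serpinh1 UMI. Raw UMIs were summed per population and library and divided by the population's total (CPM). Poisson, exact conditional binomial and Clopper-Pearson intervals at 95% cover counting error only. For shares of cells with a UMI, each cell was thinned to 2000 UMIs and shallower cells were left out. The calculations used scipy 1.17.1 and numpy 2.4.6 for intervals, scikit-learn 1.9.0, pandas 2.3.3 and matplotlib 3.10.9 under Python 3.11.15, and were tested on simulated data.

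No test was made, since there was 1 library per condition and cells are not replicates. A gene was counted as past the fold at 1.5-fold with at least 50 UMIs over both libraries. Genes named are the 8 members, every other ligand, homologue, receptor and co-receptor with at least 10 UMIs, up to 4 genes per other list by the size of their ratio, the 5 genes most like each member by Pearson's r among genes with at least 10 CPM in some cluster, markers, leading genes of clusters and genes that overlap a member. Genes counted past the fold in a list were named after their values were seen, and some genes of the lists are not reported here. The members and lists were chosen with earlier results of these data known. Alternatives varied the cell filters, doublets, clustering, scaling, depth and count minimum. Gene positions are those of GENCODE vM21 on GRCm38, and promoter sequences come from RefSeq on GRCm38.p6.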

Additional observations from a re-analysis of the deposited data

Results flagged for a closer look

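Fgf7 had a log2 ratio of DMM to sham of 0.34 in the tendon or ligament-like class and of -1.38 in the fibroblast-like class, so the same contrast had opposite signs in both. This difference between classes was not tested. Each sign rests on 1 library per condition, and the positive one turned under other cell filters. The makeup of the fibroblast-like class also differed between the libraries.

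Fgfr1 had a log2 ratio of 0.15 in the osteoblast-like class and of -0.40 in the fibroblast-like class. This difference was likewise not tested, and thinning took the osteoblast-like value to the other side of 0. Neither of the osteoblast-like clusters was higher in DMM by itself, and the class was weighted differently in the libraries.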

How the results depend on the processing

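Of 693 recomputed ratios for 60 results, 571 stayed within the counting interval of the reported value and 108 moved outside it. The other 14 had the opposite sign to a reported value whose interval excluded 0. Sign changes where that interval included 0, such as that of Fgf9 over connective tissue, are not among these 14. With median-of-ratios scaling Fgfr1 came to 0.016 and Fgfr2 to 0.020 over connective tissue, and Fgfr1 to 0.022 in the superficial zone class. Thinning gave -0.0073 for Fgfr1 in the osteoblast-like class and -0.69 for Fgf2 beside Procr in DMM. Fgf7 in the tendon or ligament-like class came to -0.034 with a minimum of 1000 genes, -0.24 with a mitochondrial limit of 5% and -0.42 with FGF genes allowed in clustering. Subtracting the median of genes of like span gave, over connective tissue, 0.17 for Fgfr1 and 0.23 for Fgfr2, in the superficial zone class 0.18 for Fgfr1 and 0.046 for Fgfr2, in the hypertrophic class 0.13 for Fgf1 and 0.011 for Fgfr1, and in the osteoblast-like class 0.15 for Fgfr2. That alternative and equal cluster makeup were chosen after seeing the data. Members at least 1.5-fold lower over connective tissue were 1 in place of 2, Fgf7 remaining, with median-of-ratios scaling, equal cluster makeup or like span. Genes at least 1.5-fold lower were 2536, against 1547 at 200 UMIs or more and 4941 with at least 1 UMI in each library, and genes higher were 697, against 1771 with at least 1 UMI in each library. The cause of these shifts was not tested. Over 13 alternatives Fgf2 in connective tissue ranged from -0.75 to -0.43 and Fgf7 from -0.99 to -0.71. The leading cluster shared at least 3 leading genes in 7 of 7 repeats of the clustering for Fgf1, Fgf7, Fgf9 and the 3 receptors, and in 4 of 7 for Fgf2 and Fgf18. No paired analysis was possible because each condition had 1 library. Depth limits the ratios of Fgf9 (299 UMIs in DMM and 310 in sham over connective tissue) and of small classes.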
